A study of Mus musculus with 2 samples.

Results

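The CD-numbered genes encode cell surface antigens that carry a cluster of differentiation number, and they were taken here as all genes on the array whose symbol is Cd followed by a number and at most 1 letter and 1 digit, with Cd44 left out. This rule found 83 of the 22010 named genes on the array, and 49 of the 83 gave a measurable signal, among 14316 measured genes in all. The genes were compared in G1E-ER-GATA-1 cells treated with LMO2 siRNA and in the same cells treated with control siRNA. G1E cells are a mouse erythroid progenitor line derived from embryonic stem cells that lack GATA-1, and the G1E-ER-GATA-1 cells carry GATA-1 fused to an oestrogen receptor domain, so that estradiol switches it on. Cells of both arms were GATA-1-null, carried the fusion, and received beta-estradiol for 24 h after transfection. Each of 2 two-colour arrays held LMO2 siRNA RNA in Cy3 and control siRNA RNA in Cy5, which gives 2 measurements of 1 ratio. Both arrays had the same dye orientation and lay on 1 slide, so a dye effect and an siRNA effect cannot be told apart. The labels do not say that the 2 arrays came from separate cultures. The p-values then measure only the spread between these arrays, in large part pooled over all genes, which may be technical.

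CD numbers were given to surface molecules that groups of monoclonal antibodies recognise, so the genes share a naming system and not a pathway. They include receptors that start or restrain immune signals, tetraspanins that organise other membrane proteins, adhesion molecules, and regulators that protect cells from complement. Erythroid precursors lose much of their surface repertoire as they mature. LMO2 is a bridging protein without DNA binding of its own that joins GATA-1, LDB1 and the TAL1 heterodimer in one complex on erythroid genes.

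The knockdown was visible on both arrays. Lmo2 had normalised intensities of 1676 and 1633 in LMO2 siRNA cells, against 5907 and 6603 in control siRNA cells, a log2 ratio of -1.92 ± 0.14 (SD, n = 2 arrays, limma adjusted p = 2.87e-21). Between 55.8% and 68.2% of spots per channel stood well above background, and the log2 ratios of the 2 arrays correlated across genes at r = 0.90, where genes are not independent replicates. All 11 erythroid markers on the array were measured. By limma (adjusted p under 0.05) 3 were called higher and 4 lower, against 24.5% and 27.4% of all genes. Slc4a1, the anion exchanger of the red cell membrane, was among those called lower, at -0.49 ± 0.03 (SD, n = 2). It was not called in the scanner's processed signals (limma adjusted p = 0.061). The labels give the tissue as erythroid and the cell type as embryonic stem cells.

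The measured CD-numbered genes lay mostly close to a ratio of 1, and a small set was higher after LMO2 siRNA. Cd200r1 and Cd200r3, receptors of the CD200R family on myeloid cells, had the largest ratios, at 1.73-fold and 1.69-fold. Cd68, a lysosomal glycoprotein of macrophages, Cd274, the ligand PD-L1 of the inhibitory receptor PD-1, and Cd37, a tetraspanin of leukocytes, were also higher. Cd3e, a chain of the T cell receptor complex, was lower. A log2 ratio is LMO2 siRNA over control siRNA throughout, and rose or fell is said only of genes called in 1 direction by limma (adjusted p under 0.05) in 3 sets of values and not saturated: the loess-normalised ratios, the same after the scanner's position correction, and the scanner's processed signals.

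In the loess-normalised ratios limma called 12 of the 49 measured genes higher, against 24.5% of all 14316 genes tested. It called 2 lower (4.08% of the 49), against 27.4% of all genes, and 14 in either direction (28.6%), against 51.9%. The share called higher was thus the same as over all genes. By the stricter rule 5 of the 49 rose (10.2%), against 5.32% of all genes, and 1 fell (2.04%), against 2.42%, so that 12.2% of the 49 passed in either direction, against 7.74% of all genes. The median log2 ratio was 0.0047 over the 49 genes and -0.018 over all genes, and the interquartile range of the 49 ran from -0.05 to 0.13. A ratio within 0.1 of 0 was found for 32 of the 49, and 35 had the same sign on both arrays. The median SD between the 2 arrays was 0.055 for the 49 genes and 0.053 for all genes.

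The share called differed with brightness. With all measured genes split into 4 groups of equal size by brightness, 27 of the 49 were in the dimmest group, where 3.70% of the 27 and 15.4% of all genes were called in either direction. The next group held 13 of them, of which 69.2% were called, against 58.4% of all genes there. In the group after it, 75% of the 4 CD-numbered genes were called, against 66.0% of all genes. In the brightest group, 20.0% of the 5 CD-numbered genes were called, against 68.0% of all genes. The offset of 50 added during background correction draws ratios of dim spots towards 0, so ratios of dim genes understate a difference. All 4 array channels were well above background for 40 of the 49 genes, and no CD-numbered gene was saturated.

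**Figure D1:**
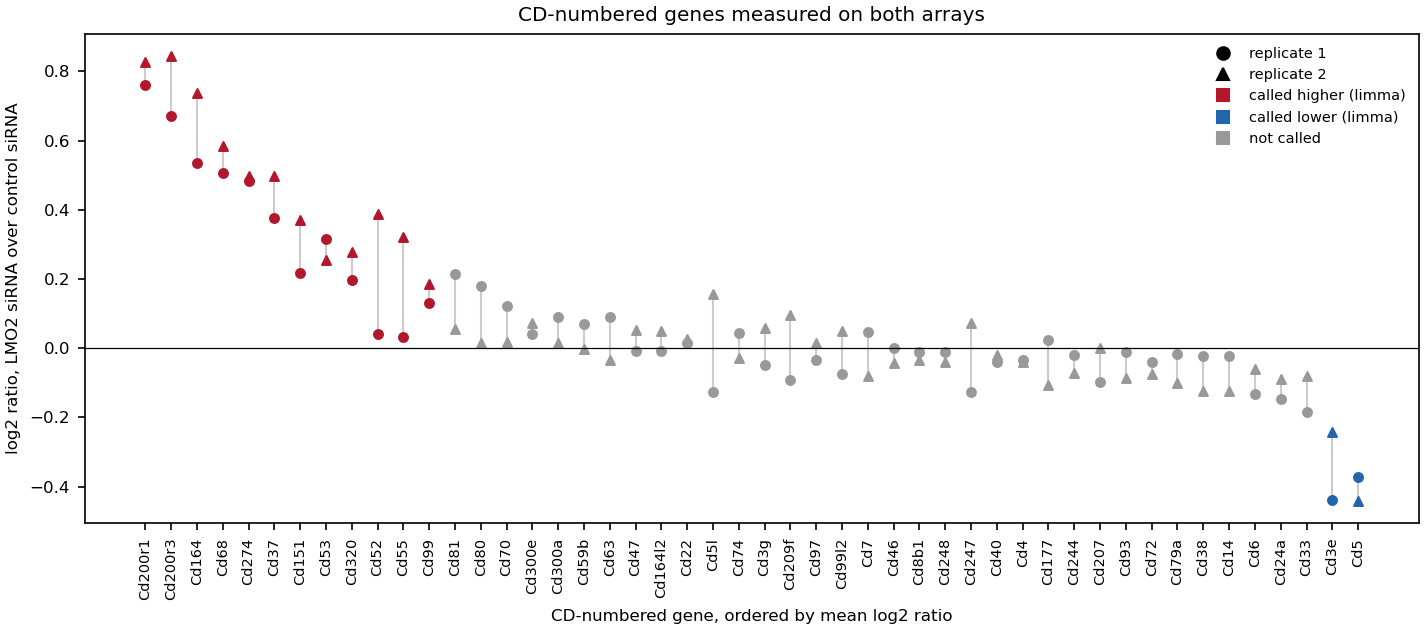
Log2 ratio of LMO2 siRNA over control siRNA on each array (vertical axis) for 48 of the 49 measured CD-numbered genes (horizontal axis, ordered by mean); circles are replicate 1 and triangles replicate 2, joined by a line, and colours mark limma calls. Cd200r1 and Cd200r3 stand highest, at means of 0.79 and 0.76, 31 of those plotted lie within 0.1 of 0, and Cd3e and Cd5 are the 2 genes called lower. With median centring, where the median of all genes is -0.40, Cd164, Cd274, Cd151, Cd320, Cd55 and Cd99 lie below 0.

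The myeloid receptors held 3 of the 5 genes that rose. Of 17 such genes on the array 10 were measured, 3 were called higher and none lower. Their median log2 ratio was 0.03, beside -0.018 over all genes. Over all 14316 genes tested limma called 24.5% higher and 27.4% lower. These shares also stand beside the counts of the other groups and lists below. Probes of these 3 genes and of Cd37 are shown because the 4 genes rose and kept their sign in each of the 3 sets and with median centring. They are 60-base probes copied from the scanner files in lower case, each with an open reading frame, for genes that RefSeq places on chromosomes 16, 16, 11 and 7. The Cd200r1 sequence is its second probe, and the others are the probes used for the ratios.
Cd200r1: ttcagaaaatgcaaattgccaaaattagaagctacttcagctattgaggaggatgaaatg
Cd200r3: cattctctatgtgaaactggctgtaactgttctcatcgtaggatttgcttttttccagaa
Cd68: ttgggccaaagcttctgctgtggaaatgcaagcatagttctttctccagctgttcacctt
Cd37: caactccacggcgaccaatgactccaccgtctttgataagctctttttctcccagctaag
Cd200r1 and Cd200r3 belong to the same family and chromosome, and no probe of one shared a run of more than 6 bases with a probe of the other.

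Cd200r1 encodes the inhibitory receptor for CD200, a surface glycoprotein. Its normalised intensities were 153 and 186 in LMO2 siRNA cells, against 90.3 and 105 in control siRNA cells. Both LMO2 siRNA values lay above both control values. Here and below, such separation only describes genes that were already called from the same values. It was not counted over all genes and adds no support. The log2 ratios were 0.76 and 0.83, with a mean of 0.79 ± 0.05 (SD, n = 2, limma adjusted p = 8.09e-13), and the second probe read 0.45 and 0.53. In the processed signals, which carry no offset, the mean was 1.86 (limma adjusted p = 0.024), and with position correction 0.98.

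Cd200r3 encodes an activating relative of this receptor that is found in mouse on basophils and mast cells. It had normalised intensities of 156 and 200 in LMO2 siRNA cells, against 97.8 and 111 in control siRNA cells, with no overlap. The log2 ratios were 0.67 and 0.84, with a mean of 0.76 ± 0.12 (SD, n = 2, limma adjusted p = 4.86e-12). Its second probe read 0.33 on each array, and the processed signals gave 1.54. Cd200r1 and Cd200r3 were the 2 CD-numbered genes at least 1.5-fold higher on both arrays, a limit that 3.08% of all genes passed. No CD-numbered gene was 1.5-fold lower, against 1.18% of all genes, and 4.26% of all genes passed in either direction. Cd200, the ligand of Cd200r1, was not well above background.

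Cd68 had intensities of 144 and 167 in LMO2 siRNA cells, against 101 and 111 in control siRNA cells. The groups did not overlap, and the log2 ratio was 0.55 ± 0.05 (SD, n = 2, limma adjusted p = 2.24e-09). The position-corrected value was 0.39 and the processed signals gave 0.93. With median centring of each array in place of loess, which moves the median of all genes to -0.40, Cd200r1 read 0.59, Cd200r3 0.54 and Cd68 0.35.

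The other measured myeloid genes lay between -0.13 and 0.06. Cd33, a sialic acid-binding inhibitory receptor, was not well above background in LMO2 siRNA cells on either array. Its log2 ratio was -0.13 ± 0.07 (SD, n = 2), with a limma adjusted p of 0.0504, which misses the threshold. In the other 2 sets of values Cd33 was called lower, at -0.17 with position correction and -1.16 in the processed signals (limma adjusted p = 0.027 in each). Cd300e, Cd300a and Cd209f had log2 ratios of 0.06, 0.05 and 0.001, and Cd177, Cd207 and Cd14 of -0.04, -0.05 and -0.07. Cd14, the co-receptor for bacterial lipopolysaccharide, and Cd207, the langerin of Langerhans cells, had SDs of 0.07 each between the arrays. With position correction Cd207 and Cd209f read 0.37 and 0.17 and were called higher. Cd209a to Cd209e, Cd300c, Cd69 and Cd163, the scavenger receptor for haemoglobin bound to haptoglobin, were not well above background. Cd209a had a raw control siRNA signal of 445 on 1 array, the only array channel in which it passed.

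Markers of cells that carry these receptors were read beside them. Of 9 mast cell and basophil markers 7 were measured, 3 were called higher and none lower, against 24.5% and 27.4% of all genes. Hdc, which makes histamine, rose with a log2 ratio of 1.22 ± 0.08, and Cpa3, a mast cell carboxypeptidase, rose with 0.37 ± 0.13 (SD, n = 2 each). Mitf read 0.38 on average but 0.19 on replicate 1 and 0.57 on replicate 2, and -0.20 with median centring. Fcer1a and Prss34 read -0.03 and -0.06, Cma1 and Tpsb2 -0.03 and 0.01, and none of these was called. With position correction Fcer1a and Prss34 were called lower, at -0.20 and -0.15. Cma1 and Tpsb2 were then called higher, at 0.20 and 0.15. Fcer1a, Prss34, Cma1 and Tpsb2 were named after their values were seen. The summed normalised intensity of this list was 2621 to 2753 in LMO2 siRNA cells, against 1805 to 1974 in control siRNA cells, while Ms4a2 and Mcpt8 were not well above background. The macrophage and granulocyte list had 5 of 12 measured, 1 called higher (Ltf, 0.16, which rose) and none lower, and summed to 530 to 596 in LMO2 siRNA cells, against 545 to 615 in control siRNA cells. Csf1r, the receptor for macrophage colony-stimulating factor, read -0.12 and Lyz2, macrophage lysozyme, -0.04. The part of other cell types in the ratios of Cd200r1, Cd200r3 and Cd68 was not tested, and in such bulk RNA fewer cells of a type and less RNA per cell cannot be told apart.

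**Figure D2:**
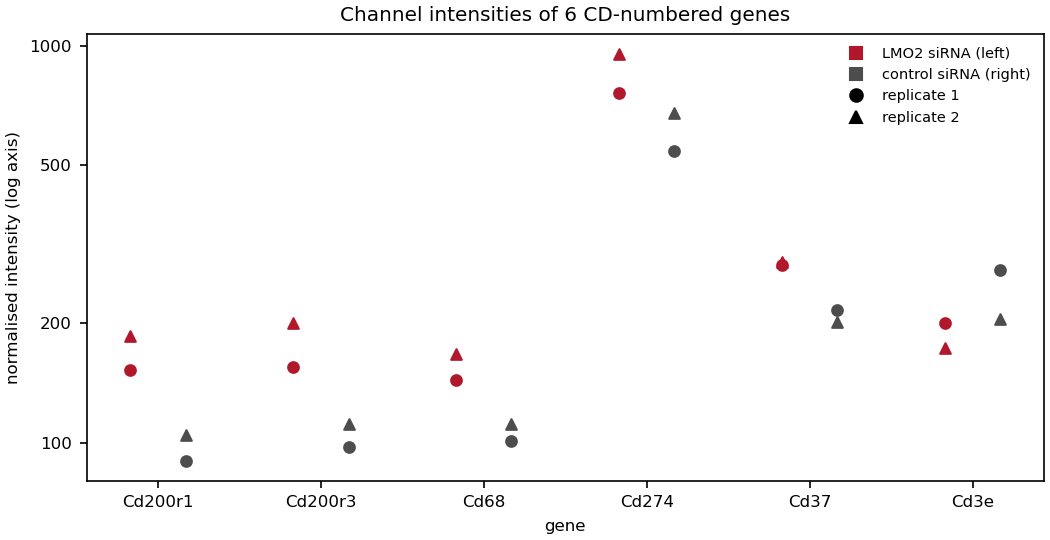
Normalised intensity on a log axis (vertical) of the 5 CD-numbered genes that rose and the 1 that fell, with LMO2 siRNA at the left and control siRNA at the right of each gene; circles are replicate 1 and triangles replicate 2. Both LMO2 siRNA values lie above both control siRNA values for Cd200r1, Cd200r3, Cd68, Cd274 and Cd37 and below both for Cd3e. Cd274 is the one whose increase turns sign, reading -0.049 with median centring, where the median of all genes is -0.40. The genes were picked by ratios of these values, so the separation adds no support.

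Among the B7 and CD28 family, which sets the threshold of T cell activation, 2 of 5 genes were measured. Cd274 had intensities of 760 and 952 in LMO2 siRNA cells, against 544 and 675 in control siRNA cells. The groups did not overlap, and the log2 ratios were 0.48 and 0.50, a mean of 0.49 ± 0.01 (SD, n = 2, limma adjusted p = 1.56e-08). Cd274 rose by the 3 sets of values, with 0.81 after position correction and 0.86 in the processed signals, but median centring turned it to -0.049, which is 0.36 above the median of all genes there. Cd80, a ligand of CD28 and CTLA-4, had a log2 ratio of 0.10 ± 0.12 (limma adjusted p = 0.16). Cd28, Cd86 and Cd276 were not well above background. Pdcd1, the receptor that Cd274 binds, read 0.11 and Pdcd1lg2, its other ligand, 0.06, and neither was called.

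The promoters of 2 genes that rose and held AGATAA are shown because GATA factors bind such letters and the complex that LMO2 bridges contains GATA-1. The motif was searched on both strands. They are the 250 bases before the gene start from RefSeq on GRCm38.p6, with AGATAA in capitals, at chr16:44943428-44943677 (+) for Cd200r3 and chr19:29367188-29367437 (+) for Cd274.
Cd200r3: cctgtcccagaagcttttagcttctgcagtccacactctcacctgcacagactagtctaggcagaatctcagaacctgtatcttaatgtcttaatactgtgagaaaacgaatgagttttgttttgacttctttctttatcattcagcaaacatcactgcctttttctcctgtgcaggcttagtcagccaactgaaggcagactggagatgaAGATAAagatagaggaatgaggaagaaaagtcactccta
Cd274: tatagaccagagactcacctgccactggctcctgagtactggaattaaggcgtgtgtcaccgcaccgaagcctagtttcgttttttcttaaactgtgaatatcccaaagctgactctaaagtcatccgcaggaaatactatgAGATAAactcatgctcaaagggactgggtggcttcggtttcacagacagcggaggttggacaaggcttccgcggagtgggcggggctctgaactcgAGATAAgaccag
The motif lies 39 bases before the start of Cd200r3 and 108 and 12 bases before that of Cd274. The measured CD-numbered genes had 35 promoter entries, of 32 genes, since Cd151, Cd47 and Cd320 have more than 1. AGATAA was in 6 of the 35 entries (17.1%), each of a different gene, against 9.99% of all 32851 promoters of this length. The 4 other genes were Cd38, Cd207, Cd3g and Cd300e, whose log2 ratios lay between -0.07 and 0.06. The E-box letters CANNTG, which cannot overlap AGATAA, were in 28 of the 35 entries (80.0%), against 66.2% of all promoters. The letters AGATAA were not in the windows of Cd68, Cd37 or Cd3e, but other letters that GATA factors may bind were not searched for. Cd200r1 had no promoter entry. A match is a description of letters, and no binding was measured in these data.

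The tetraspanins span the membrane 4 times and gather integrins and other receptors into membrane domains. Of 7 CD-numbered tetraspanins 5 were measured, 3 were called higher and none lower, against 24.5% and 27.4% of all genes. The median log2 ratio of the 5 was 0.28. Cd37 had intensities of 280 and 285 in LMO2 siRNA cells, against 216 and 202 in control siRNA cells, without overlap. Its log2 ratio was 0.44 ± 0.08 (SD, n = 2, limma adjusted p = 1.73e-07), its second probe read 0.34 on each array, and it rose by the 3 sets of values. Median centring left Cd37 at 0.06.

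Cd53, a leukocyte tetraspanin, had log2 ratios of 0.31 and 0.25 and a mean of 0.28 ± 0.04. It was not called after position correction, at 0.11 (limma adjusted p = 0.13), and read 0.89 in the processed signals. Cd151, a partner of laminin-binding integrins, had log2 ratios of 0.22 and 0.37, but read 0.17 in the processed signals (limma adjusted p = 0.22) and -0.28 with median centring, which is 0.13 above the median of all genes there. Cd81, part of the B cell co-receptor, had a log2 ratio of 0.13 ± 0.11 (limma adjusted p = 0.053), which median centring turned to -0.59. With position correction Cd81 read 0.34 and was called higher (limma adjusted p = 0.00074), and the processed signals gave 0.35 (limma adjusted p = 0.066). Cd63, a protein of late endosomes, had 0.03 ± 0.09, which median centring turned to -0.03. Cd9 and Cd82 were not well above background.

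Tetraspanins without a CD-numbered symbol moved both ways. Of 24 listed 12 were measured, 5 were called higher and 2 lower, with a median log2 ratio of 0.0026. Tspan17 rose with 0.59 ± 0.09 (SD, n = 2). Tspan31 read 0.41 but -0.26 with median centring, and Upk1a, a urothelial tetraspanin, read -0.40 but -0.11 with position correction. Tspan4 averaged 0.56, from -0.14 on replicate 1 and 1.26 on replicate 2. Of 5 measured tetraspanin partners 3 were called higher and 1 lower. Igsf8, an immunoglobulin-type partner of Cd81, read 0.41 ± 0.02, and the integrin chains Itga4 and Itgb1 read 0.38 and 0.23 but -0.19 and -0.35 with median centring. Adam10, a membrane protease, read -0.21 on replicate 1 and -0.70 on replicate 2 and was not called after position correction.

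The progenitor, adhesion and sialomucin group had 10 of 13 genes measured, 3 called higher and none lower, against 24.5% and 27.4% of all genes. Its median log2 ratio was 0.0064, and none of its genes rose or fell by the stricter rule. Cd164, endolyn, a sialomucin of blood progenitors, had intensities of 6218 and 6391 in LMO2 siRNA cells, against 4293 and 3837 in control siRNA cells. These groups did not overlap, but the log2 ratio of 0.64 ± 0.14 (SD, n = 2, limma adjusted p = 2.6e-10) became -0.049 with median centring, 0.36 above the median of all genes there. It rested on 1 of 3 probes: the other probes read -0.02 and 0.07 on average.

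Cd99, a surface glycoprotein of leukocyte migration, had log2 ratios of 0.13 and 0.18, a second probe at -0.14 and -0.07, and -0.38 with median centring. Its relative Cd99l2 read -0.01 in the probe used, 0.33 and -0.20 in the others. Cd320, the receptor that takes up transcobalamin with vitamin B12, is placed with the uptake receptors, of which 2 of 5 were measured: it had log2 ratios of 0.20 and 0.28, a second probe at -0.04 and 0.03, and -0.083 with median centring. With Cd164, these are the 4 genes, among 12 with several measured probes, whose probes differed in sign.

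Cd47, the signal against phagocytosis on red cells, was named after its values were seen. The probe used had intensities of 29238 and 30189 in LMO2 siRNA cells, against 29401 and 29134 in control siRNA cells, which overlapped, and a log2 ratio of 0.02 ± 0.04 that median centring turned to -0.76. The other 3 probes, which carry a different transcript accession, read 0.25, 0.55 and 0.47, and -0.44, -0.13 and -0.16 with median centring. Sirpa, the receptor of Cd47, had a log2 ratio of 0.03. Cd24a, the heat-stable antigen of erythroid and lymphoid precursors, had -0.12 ± 0.04 (limma adjusted p = 0.081), and Cd97, an adhesion receptor now named Adgre5, -0.0086 ± 0.03. Cd52 was called higher at 0.22, and Cd55 at 0.18, from 1 array: they read 0.04 and 0.03 on replicate 1 and 0.39 and 0.32 on replicate 2, and Cd55 read -0.13 with median centring. Cd93, Cd248 and Cd164l2 lay between -0.05 and 0.02. Cd34, the sialomucin of haematopoietic stem cells, Cd109 and Cd302 were not well above background.

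**Figure D3:**
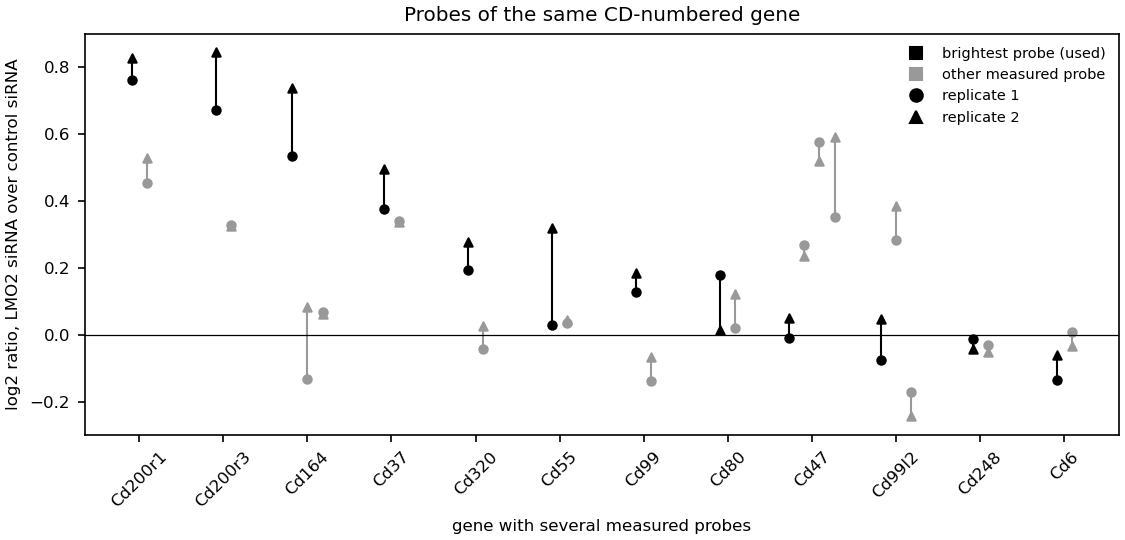
Log2 ratio of LMO2 siRNA over control siRNA on each array (vertical axis) for every measured probe of the 12 CD-numbered genes with several measured probes (horizontal axis); black marks the brightest probe, used for the gene, grey the others, circles replicate 1 and triangles replicate 2. Both probes of Cd200r1, Cd200r3 and Cd37 lie above 0, while Cd164 has 1 probe at 0.64 and others at -0.02 and 0.07, and Cd47 has 1 at 0.02 and others up to 0.55. With median centring, where the median of all genes is -0.40, every measured probe of Cd164 and Cd47 reads below 0.

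The complement regulators keep host cells from being lysed by complement, and red cells depend on them. Of 4 such genes 3 were measured, with 1 called higher. Cd55, decay-accelerating factor, was the gene called, on the terms given above, and it was not called after position correction, at 0.08. Cd46 had a log2 ratio of -0.02 ± 0.03, and Cd59b, a mouse inhibitor of the membrane attack complex, 0.03 ± 0.05, while Cd59a was not well above background. Of 4 other measured complement regulators 1 was called higher and 1 lower. Cr1l, the mouse membrane regulator Crry, read 0.22 but -0.33 with median centring, and Cr2, the receptor for C3d, read -0.22 but 0.042 after position correction.

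The T cell surface genes included the 2 CD-numbered genes called lower, and 8 of 14 were measured, with a median log2 ratio of -0.03. Cd3e, a signalling chain of the T cell receptor complex, had intensities of 200 and 174 in LMO2 siRNA cells, against 272 and 205 in control siRNA cells. Both LMO2 siRNA values lay below both control values. Cd3e fell, with log2 ratios of -0.44 and -0.24 and a mean of -0.34 ± 0.14 (SD, n = 2, limma adjusted p = 1.44e-05), -0.45 after position correction and -0.61 in the processed signals (limma adjusted p = 0.045).

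Cd5, a scavenger-type receptor that restrains T cell receptor signals, had intensities of 432 and 384 in LMO2 siRNA cells, against 559 and 522 in control siRNA cells, without overlap. Its log2 ratio was -0.41 ± 0.05 (SD, n = 2, limma adjusted p = 4.52e-07). In the processed signals Cd5 read -0.26 and was not called (limma adjusted p = 0.079), so it is outside the stricter rule.

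The other chains of the receptor complex did not pass the test: Cd3g had a log2 ratio of 0.0047 ± 0.08 and Cd247, the zeta chain, -0.03 ± 0.14. The co-receptors Cd4 and Cd8b1 read -0.04 and -0.02, and Cd6 and Cd7 -0.10 and -0.02. With position correction Cd7 read -0.21 and was called lower (limma adjusted p = 0.013). Cd3d, Cd8a, Cd2, Cd96, Cd160 and Cd226 were not well above background. Of 6 measured T cell markers outside the CD series 1 was called lower and 1 higher. Zap70, the kinase that binds the zeta chain, read -0.41 but -0.01 after position correction, where it was not called. In the processed signals Zap70 read -0.67 and was called lower (limma adjusted p = 0.039). Gata3, a transcription factor of T cells, rose with 0.36 ± 0.01 (SD, n = 2). This list summed to 689 to 717 in LMO2 siRNA cells, against 714 to 725 in control siRNA cells, and Thy1, Tcf7 and Bcl11b were not well above background. The part of T cell RNA in the ratios of Cd3e and Cd5 was not tested.

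No B cell surface gene passed the test among 6 measured of 9. Cd79a, a chain of the B cell receptor, had a log2 ratio of -0.06 ± 0.06 and Cd22, an inhibitory lectin, of 0.02 ± 0.0089. Cd72, Cd40 and Cd70 lay between -0.06 and 0.07. Cd79b, Cd180 and Cd27 were not well above background. Of 3 measured B cell markers 1 was called lower: Vpreb1, part of the surrogate light chain, fell with -0.16 ± 0.02. The list summed to 359 to 366 in LMO2 siRNA cells, against 387 to 390 in control siRNA cells, and Pax5 and Ebf1, the factors that define the lineage, were not well above background.

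Single members of the SLAM, antigen presentation and other groups were not called in the loess-normalised ratios. Cd244, a SLAM-family receptor now named Cd244a, read -0.05 ± 0.04, and its ligand Cd48 was not well above background. Of 3 measured SLAM genes outside the series Ly9 was called lower at -0.19, from -0.36 on replicate 1 and -0.02 on replicate 2. Cd74, the invariant chain of MHC class II and a receptor for the cytokine Mif, had a log2 ratio of 0.0079 ± 0.05, turned to -0.39 with median centring. After position correction Cd74 read -0.15 and was called lower (limma adjusted p = 0.041). Mif itself read 0.59 ± 0.24 (SD, n = 2), but -0.079 with median centring. Tnfsf9, another immune ligand, rose with 0.52 ± 0.09. Cd38, an enzyme that consumes NAD, read -0.07 ± 0.07, and Cd5l, a secreted macrophage protein, 0.02 ± 0.20, from -0.13 and 0.16, turned to -0.45 with median centring. After position correction Cd5l read 0.21 and was called higher (limma adjusted p = 0.036). Cd36, the fatty acid and thrombospondin receptor, Cd1d1 and Cd1d2 were not well above background.

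The scanner's own p for each spot's log ratio gave a second reading of the calls. It was under 0.01 on both arrays in 1 direction for 6 genes that were higher, namely the 5 that rose and Cd53, against 4.55% of all genes. None of the 49 was lower by it, against 1.01% of all genes and 5.56% in either direction, so Cd3e fell by limma and not by this rule. With position correction limma called 13 of the 49 higher, against 24.1% of all genes, and 5 lower, against 20.5%, which makes 18 in either direction, against 44.6%. In the processed signals it called 6 higher, against 6.8% of all genes, and 2 lower, Cd3e and Cd33, against 3.41%, or 8 in either direction, against 10.2%.

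**Figure D4:**
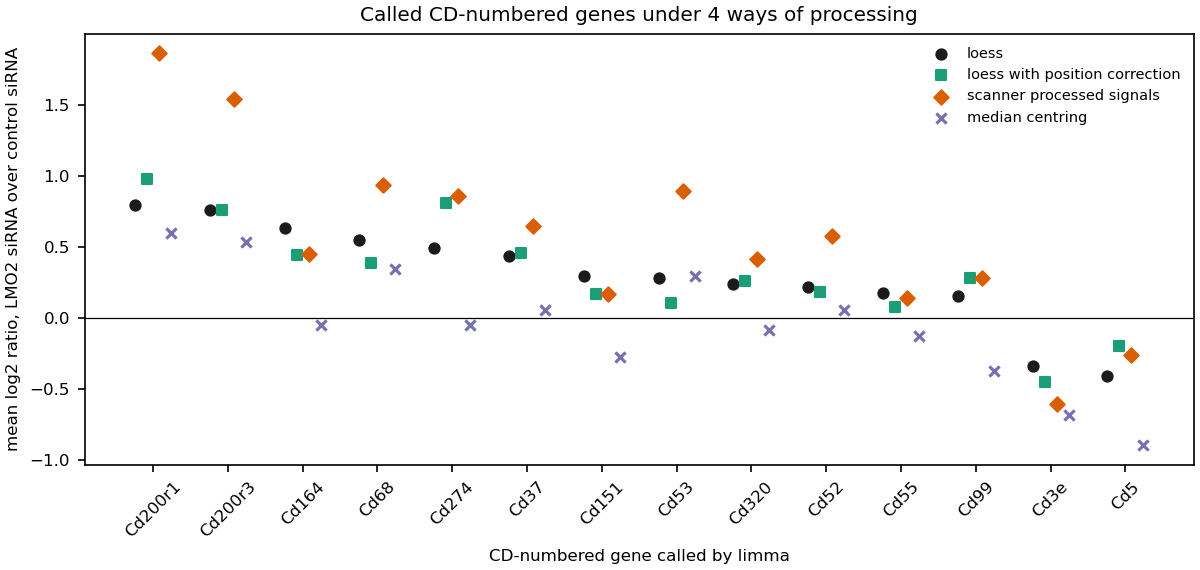
Mean log2 ratio of LMO2 siRNA over control siRNA (vertical axis) of the 14 CD-numbered genes called by limma (horizontal axis) in 4 sets of values; circles are loess, squares loess with position correction, diamonds the scanner's processed signals and crosses median centring. Cd200r1 ranges from 0.59 to 1.86 and stays above 0, Cd3e and Cd5 stay below 0, and Cd164, Cd274, Cd151, Cd320, Cd55 and Cd99 fall below 0 with median centring. The median of all genes is -0.40 with median centring. Cd164, Cd274, Cd151, Cd320, Cd55 and Cd99 lie above that median, by 0.03 (Cd99) to 0.36 (Cd164), and Cd3e and Cd5 lie below it.

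Position on the array moved with the ratios. With the array rows split into 4 blocks, the median loess-normalised log2 ratio over all measured probes was -0.16, -0.05, 0.03 and 0.12, and after position correction it was 0.08, -0.02, -0.05 and -0.03. Cd274 lay in the first block, where correction moved it to 0.81, and Cd53 and Cd68 in the last, where it moved them to 0.11 and 0.39.

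Markers of other lineages were read in the same fit. Of 9 measured megakaryocyte markers 4 were called higher and 1 lower, against 24.5% and 27.4% of all genes. Gp1ba, a platelet adhesion receptor, rose with 1.18 ± 0.05, Rab27b with 0.91 ± 0.01 and Gp5 with 0.62 ± 0.01 (SD, n = 2 each). Plek also rose, with 0.50 ± 0.09 (SD, n = 2), but read -0.19 with median centring. Gp9, another platelet glycoprotein and the one called lower, fell with -0.31 ± 0.05 and was named after its values were seen. This list summed to 9530 to 10909 in LMO2 siRNA cells, against 6523 to 7769 in control siRNA cells, and its part in the ratio of any CD-numbered gene was not tested. Of 5 measured dendritic cell markers 2 were called lower, of which Zbtb46 fell with -0.62 ± 0.05, and of 5 endothelial markers none was called. Of 11 erythroid markers 3 were called higher and 4 lower. Both globin genes read were called higher but were saturated, so they have no fold here. Epor, the erythropoietin receptor, was also called higher and read 0.32, but -0.39 with median centring.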

How the data were processed

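RNA from LMO2 siRNA (Cy3) and control siRNA (Cy5) cells was hybridised to 2 two-colour arrays, per the labels. Spots were read with Agilent Feature Extraction 9.1.3.1, per the file headers. The deposited files give mean signal, local background and processed signal as intensity in each channel, a multiplicative position ratio, a log10 ratio of red over green (per the file headers), and the scanner's p-value for it. The deposited series table repeated these log10 ratios within 0.005 log10 units, which settles its scale and direction. No source used here gives the genome build behind the probes.

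Background was corrected with normexp (offset 50) and each array normalised by loess, with control spots at weight 0, in limma 3.58.1 (R 4.3.3). Signs were set so that each log2 ratio is LMO2 siRNA over control siRNA. Spots of a probe were averaged. A probe counted as measured if either channel passed the scanner's background test on each of the arrays (24737 of 41174 probes), and the brightest measured probe stood for its gene. limma's moderated test against 0 used both arrays, with 1 residual degree of freedom per gene, and p-values were adjusted across 14316 genes by the Benjamini-Hochberg method. Channel intensities are the loess ratios after Aquantile scaling. The fit was tested on simulated data for this comparison over 14316 genes, where it called 100 of the 100 genes set to change 1.5-fold and 15 that were not. The simulated noise was independent and drawn from the spread that limma itself had fitted. It held no dye effect, slide effect or drift with position, so it cannot give the rate of false calls in the real arrays. The arrays share 1 slide, so slide could not be tested as a batch. The number of arrays limits the precision.

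The members and lists were chosen with earlier results of these data known. Per-array values were given for genes called in all 3 sets of values, the 10 largest ratios and genes whose probes differ in sign, and of other lists the 4 largest ratios. Old symbols were matched to RefSeq. Single results of 2 genes are not reported here.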

Additional observations from a re-analysis of the deposited data

How the results depend on the processing

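Of the 14 CD-numbered genes called, all 14 were still called when both channels had to be above background, with no filter on dim probes, with an offset of 10, without outlier-flagged spots and without saturated probes; 11 were with the mean over probes and 11 with position correction, 7 with the processed signals and 7 with the series' own table, and 6 with median centring. The count of 12 called higher became 6 with the processed signals, 4 with median centring, 6 with the series' table, 6 by the scanner's p, 5 in all 3 sets of values and 2 by 1.5-fold on both arrays. The count of 2 called lower became 5 with position correction, 14 with median centring, 0 by the scanner's p, 1 in all 3 sets and 0 by 1.5-fold. Over all genes, 3509 called higher became 974, 425 and 898 with the processed signals, median centring and the series' table, and 3923 called lower became 488, 9238 and 425. The median of the CD-numbered genes was -0.075 with median centring, which also moved the median of all genes to -0.40, and -0.007 to 0.016 on 1 array alone. Median centring reversed Cd164 (-0.049), Cd274 (-0.049), Cd151 (-0.28), Cd320 (-0.083), Cd55 (-0.13), Cd99 (-0.38), Cd81 (-0.59), Cd47 (-0.76), Cd164l2 (-0.25), Cd5l (-0.45), Cd74 (-0.39), Cr1l (-0.33), Epor (-0.39), Itga4 (-0.19), Itgb1 (-0.35), Mif (-0.079), Mitf (-0.20), Plek (-0.19) and Tspan31 (-0.26). Position correction reversed Cd74 (-0.15), Cd207 (0.37), Cr2 (0.042), Sox17 (0.22) and Cma1 (0.20), and Tspan4 read 1.26 without replicate 1 and -0.14 without replicate 2. The cause was not tested. Counts of calls have no value on 1 array, which leaves no residual degrees of freedom. Both arms lie on each array, so the ratio already pairs them, and the test of that ratio against 0 was a paired analysis.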
